A study of Mus musculus with 2 samples.

Results

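The nuclear genes of oxidative phosphorylation were examined here for open chromatin in the developing mouse cortex. They were chosen by symbol among autosomal protein-coding genes of the GENCODE M21 annotation: symbols that begin with Nduf, Uqcr, Cox4i, Cox5, Cox6, Cox7, Cox8 or Atp5, or that are Sdh followed by 1 letter. The rule found 91 gene records with 90 symbols among 20807 autosomal protein-coding genes, since Atp5o is annotated by 2 records. A further 3 genes with such symbols lie on the X chromosome and stayed outside the rule. The data were 2 DNase-seq libraries of left cerebral cortex, each from a female B6CASTF1/J mouse at the age of 10 days. These mice are first-generation hybrids of the laboratory strain C57BL/6J and the wild-derived strain CAST/EiJ. Both libraries belonged to 1 group without a treatment, a control or a second tissue, so the comparisons were between genes and between the libraries. The labels number the animals separately but give both the same donor identifier of the strain. Differences between the libraries can therefore stem from the animals or from the laboratory work, and these cannot be told apart.

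Oxidative phosphorylation is carried out by protein complexes of the inner mitochondrial membrane. Complexes I to IV pass electrons from NADH and succinate to oxygen, complexes I, III and IV pump protons, and ATP synthase uses the proton gradient to make ATP. Each complex except complex II also holds subunits encoded by mitochondrial DNA, so nuclear and mitochondrial products must be made together. The nuclear genes are active in nearly every cell, and neurons depend heavily on their products. Several subunits of complex IV exist as a widely used form and a form restricted to muscle, testis, lung or cells short of oxygen. DNase I cuts DNA that is not packed in closed chromatin, so a cluster of cuts, called a peak, marks an accessible promoter or enhancer. A short stretch inside a peak that is cut less than its surroundings is called a footprint and is read as a mark of bound protein.

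A member was counted as open when both libraries had a peak of the smaller deposited peak list within 500 bp of any of its annotated start sites. Its promoter signal was the highest such peak in each library, in the units deposited. The libraries held 60071 and 70563 such peaks, and 212785 and 224029 footprints. The tissue label was checked against marker genes by the same rule. All 5 neuronal markers were open, with a mean signal from 1.52 (Stmn2) to 3.75 (Syt1), and 3 of 5 markers of cortical excitatory neurons were open. Among the remaining excitatory markers, Tbr1 had a peak in replicate 2 only. Markers of other brain cells were open in part, at 2 of 4 for astrocytes, 3 of 4 for the oligodendrocyte lineage, 1 of 3 for microglia and 0 of 3 for endothelium. No marker of striated muscle (0 of 5) or liver (0 of 3) was open, and 1 of 5 markers of the male germ line was, Dazl. In such bulk tissue, fewer cells with an open promoter and less cutting per cell cannot be told apart.

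Most members were open. A promoter peak was found in both libraries for 83 of 91 records (91.2%), against 56.3% of all autosomal protein-coding genes. The members' promoters were often rich in CpG dinucleotides, defined here as an observed over expected ratio of at least 0.6 in 500 bp on each side of the gene's outermost start. That held for 72 of 91 members (79.1%) and for 47.2% of all genes. Among CpG-rich genes the background was higher, at 87.2% open, and 71 of 72 CpG-rich members were open (98.6%). All 83 open members had peaks that overlapped between the libraries. The peak covered an annotated start in 76 of 83 members in each library (91.6%), against 76.5% of all open genes in replicate 1 and 77.6% in replicate 2.

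The members' median promoter signal was 3.34 in replicate 1 and 4.56 in replicate 2, and 4.01 for the mean of both. The same median was 2.96 over all open autosomal protein-coding genes and 3.35 over those with a CpG-rich promoter. The members were above the median of all genes in 60 of 83 cases (72.3%, where 50% hold by construction). They were not crowded at the top: 8 of 83 (9.64%) passed the 90th percentile of all genes, 6.57, which 10% of genes pass by construction. Cytosolic ribosomal protein genes, another set used in every cell, were open in 74 of 78 cases with a median of 4.68. Mitochondrial ribosomal protein genes, which serve the same organelle, were open in 77 of 78 cases with a median of 3.24. The members thus lay between these sets at their median, and no test was made over genes, which are not replicates.

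**Figure D1:**
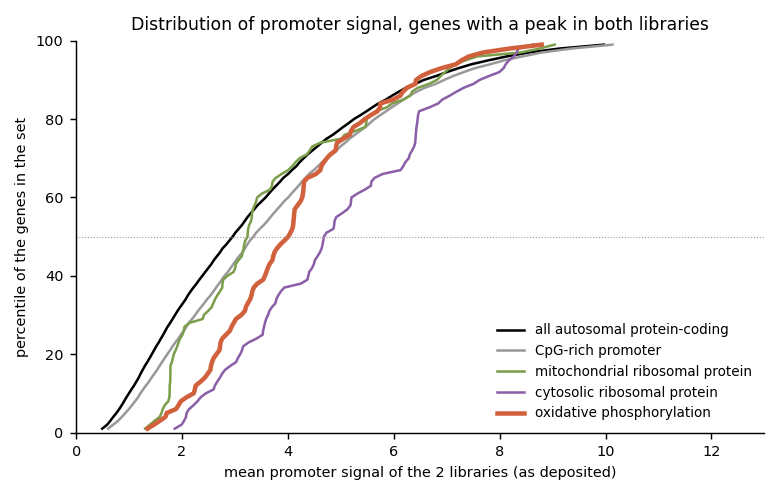
The mean promoter signal of the 2 libraries (x axis, units as deposited) is plotted against the percentile within each gene set (y axis), for genes with a peak in both libraries. The curve of the oxidative phosphorylation genes crosses the 50th percentile at 4.01, to the right of all autosomal protein-coding genes at 2.96, and the curves cross near the 89th percentile, above which the members are lower (7.28 against 7.79 at the 95th).

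The libraries ranked the members alike. Over the 83 open members, the signals of the libraries had a Spearman rho of 0.94 and, on the log2 scale, a Pearson r of 0.92; the points share the same libraries and are genes, so these values only describe the pair. Replicate 2 gave the higher value in 80 of 83 members, by a median log2 ratio of 0.52, and the median over all open genes was 0.56. The members therefore carried the same offset as the other genes. It depends on a scaling of the deposited values that the sources used here do not give, and was 0.39 for the members and 0.43 for all genes when values were counted in the smallest step of each file. The members with the widest ratio toward replicate 2 were Ndufab1 (1.13 and 2.76), the acyl carrier protein of complex I, with a log2 ratio of 1.29, Ndufv2 (1.68 and 3.75), at 1.16, and Ndufaf7 (4.02 and 8.27), at 1.04. The exceptions toward replicate 1 were Ndufaf1 (1.87 and 1.49), at -0.33, Ndufc2 (1.43 and 1.42) and Ndufa11 (4.95 and 4.93), both at -0.01. The Ndufa11 values came from different peaks, centred at -656.5 bp from a start in replicate 1 and at -36.5 bp in replicate 2. Its ratio therefore does not compare the same peak, and Ndufa11 is an exception only by the rule of the highest peak.

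**Figure D2:**
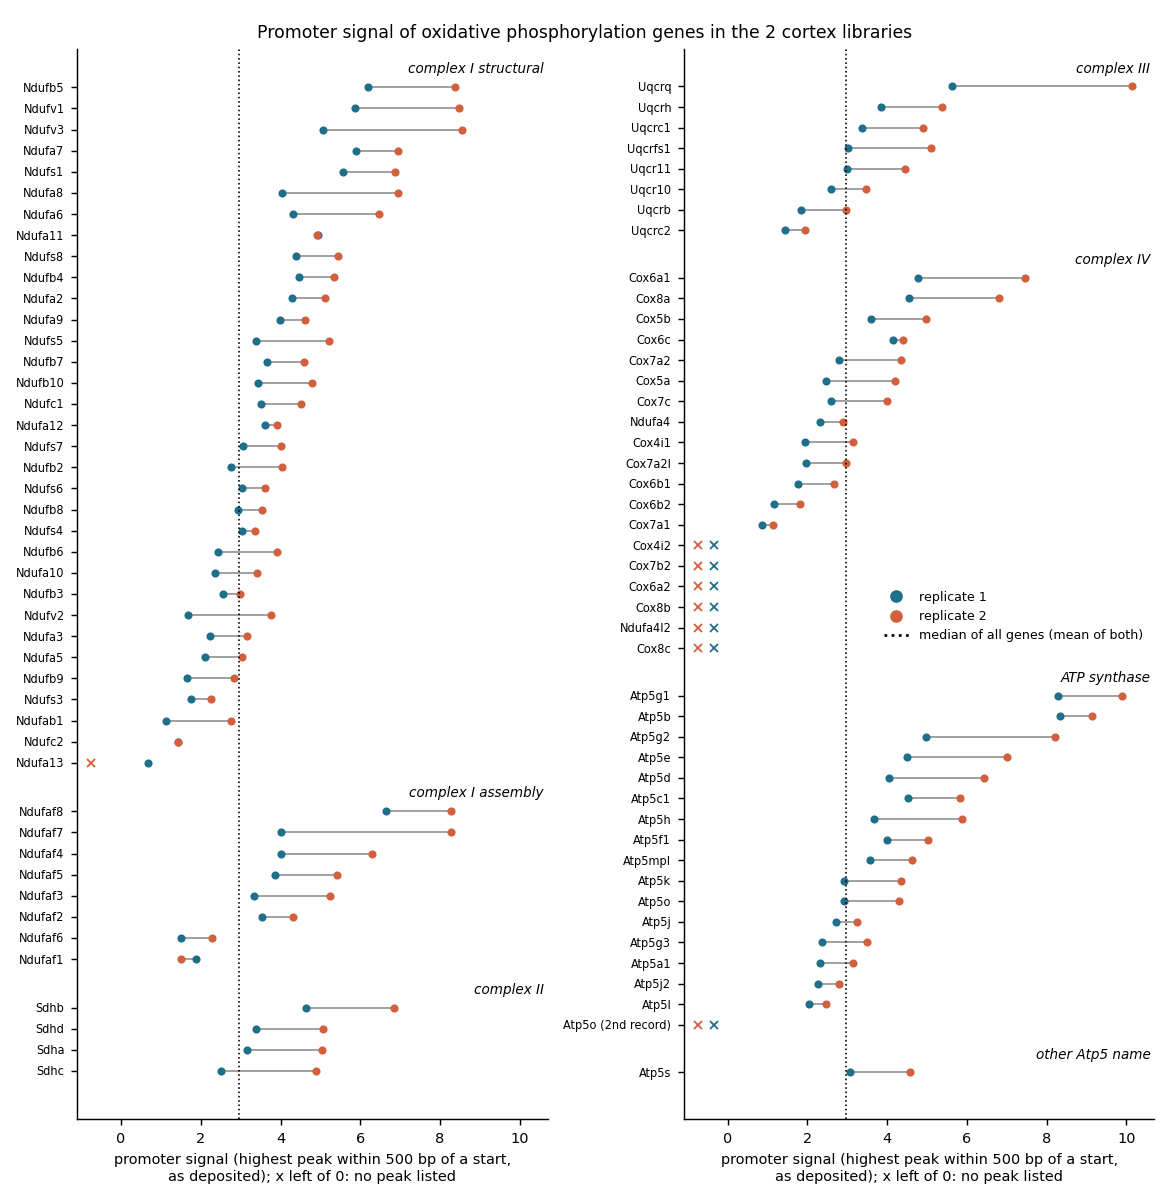
The promoter signal of a member (x axis, units as deposited) is shown for replicate 1 (blue) and replicate 2 (orange), joined by a line, with members grouped by complex and ordered by their mean (y axis), for 90 of the 91 records. Crosses left of 0 mark libraries without a listed peak, and the dotted line is the median of all open genes, 2.96; 6 members of complex IV and the second Atp5o record have crosses in both libraries.

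Complex I, the NADH dehydrogenase that feeds electrons into the chain, was represented by 34 structural genes. Of these, 33 were open, with a median mean signal of 4.01. The highest was Ndufb5, an accessory membrane subunit, at 6.20 in replicate 1 and 8.38 in replicate 2 (7.29 ± 1.54, SD, n = 2). In both libraries this peak was 60 bp wide, was centred at -99.5 bp from the nearest start and covered no annotated start of Ndufb5. A start of Mrpl47 lay 20 bp from one of Ndufb5, so the peak cannot be assigned to 1 gene. Ndufv1, the core subunit that takes electrons from NADH, followed at 5.86 and 8.47 (7.16 ± 1.84), and the accessory gene Ndufv3 at 5.06 and 8.56 (6.81 ± 2.48). The libraries ranked these 3 in opposite order. Their means differed by less than their SDs, which include the offset between the libraries. At the low end stood Ndufc2, an accessory membrane subunit, at 1.42 ± 0.0103, and Ndufab1 at 1.94 ± 1.15. Core subunits were found along the whole range: Ndufs1 reached 6.22 ± 0.939 and Ndufs8 4.91 ± 0.742, while Ndufs7 had 3.53 ± 0.673, Ndufv2 2.72 ± 1.46 and Ndufs3 2.00 ± 0.349. By the sum of the peaks at each gene, Ndufs7 came to 6.60 and Ndufv2 to 4.50. Ndufa11 illustrates a limit of the rule, since its highest peak in replicate 1 was centred at -656.5 bp from its nearest start (negative values are upstream); the peaks nearest to its starts averaged 4.00.

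Ndufa13, an accessory subunit also known as GRIM-19, was the member of complex I without an open call. It had a weak peak of 0.678 in replicate 1, at -192 to -98 bp from its own start on chromosome 8, and none in replicate 2. The larger deposited lists held a peak of 0.629 at -102 to -3 bp in replicate 2, and a separate one of 0.512 in replicate 1, at 177 to 297 bp inside the gene. Strong peaks flanked the window in both libraries. An upstream peak, at -902 to -663 bp in replicate 1, had a signal of 6.59 and 10.96, and a peak at 758 to 977 bp inside the gene had 4.35 and 5.32. The upstream peak lay nearest to the start of Yjefn3. The promoter of Ndufa13 was nevertheless CpG-rich, with a ratio of 0.94, and was the exception among the 72 CpG-rich members.

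All 8 complex I assembly factors, proteins that help to build the complex without staying in it, were open, with a median of 4.47. Ndufaf8 led at 6.66 and 8.28 (7.47 ± 1.15), followed by Ndufaf7, a methyltransferase, at 6.14 ± 3.01 and Ndufaf4 at 5.16 ± 1.61. The lowest were Ndufaf6 at 1.90 ± 0.547 and Ndufaf1 at 1.68 ± 0.270. The assembly factors thus spanned nearly the range of the structural genes.

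The 4 genes of complex II, succinate dehydrogenase, which also serves the citric acid cycle, were all open and all above the median of all genes. Sdhb, the iron-sulphur subunit, had 4.63 and 6.85 (5.74 ± 1.57). Sdhd, a membrane anchor, had 4.22 ± 1.18 and Sdha, the flavoprotein that oxidises succinate, 4.10 ± 1.33. The other anchor, Sdhc, had 2.51 and 4.90 (3.70 ± 1.69). The last 3 means differed by less than their SDs, which include the offset between the libraries. Within each library Sdhc was the lowest of these. It had 2.51 against 3.38 (Sdhd) and 3.15 (Sdha) in replicate 1, and 4.90 against 5.06 and 5.04 in replicate 2.

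All 8 members of complex III, which passes electrons from ubiquinol to cytochrome c, were open, with a median of 3.89. The symbol rule does not take its subunit Cyc1, which is given below with other genes of the pathway. Uqcrq, a small subunit, had the highest mean, 7.88 ± 3.19, from 5.62 in replicate 1 and 10.1 in replicate 2, the widest SD named for this complex. This peak was centred at -289.5 bp from the nearest Uqcrq start in replicate 1, toward the divergent gene Gdf9, and the peaks nearest to the Uqcrq starts averaged 3.20. Uqcrh, the hinge protein, had 4.62 ± 1.08 by the highest peak, which also lay upstream toward a divergent gene (Lrrc41), 3.34 by the nearest peak and 7.96 by the sum of its peaks. Uqcrc1, a core protein, had 4.13 ± 1.09. The lowest were Uqcrb at 2.40 ± 0.799 and the other core protein, Uqcrc2, at 1.69 ± 0.344.

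ATP synthase was represented by 17 records, of which 16 were open, with a median of 4.31. The members with the highest signal of all were here. Atp5g1 had 8.27 and 9.89 (9.08 ± 1.14), higher than 97.9% of open genes, and Atp5b, the catalytic beta subunit, had 8.32 and 9.13 (8.73 ± 0.574), higher than 97.4%. These were the 2 members above 8 in both libraries. The Atp5g1 peak covered no annotated start of the gene. It was centred at -240.5 bp from the nearest Atp5g1 start in replicate 1 and at -330.5 bp in replicate 2. Atp5g1, Atp5g2 and Atp5g3 all encode the c subunit of the rotor ring, and their promoters differed widely. Atp5g2 had 4.97 and 8.20 (6.58 ± 2.29), and Atp5g3 had 2.37 and 3.49 (2.93 ± 0.793), so that the Atp5g1 values lay above those of Atp5g3 in both libraries. The Atp5g2 peak belonged to an inner start of the gene; at its outermost start alone the signal was 1.26. Atp5a1, which encodes the partner subunit of Atp5b, had 2.73 ± 0.580, below the median of all genes. A start of Haus1 lay 70 bp from one of Atp5a1, so this peak cannot be assigned to 1 gene. The lowest were Atp5j2 at 2.53 ± 0.373 and Atp5l at 2.26 ± 0.299, although the sum of its peaks put Atp5l at 3.57, above Atp5j2. The second Atp5o record had its own start, and no peak there in either library, while the other Atp5o record, the stalk subunit, had 3.60 ± 0.969. Atp5s, named for ATP synthase but set apart as not a core subunit, had 3.82 ± 1.05.

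Complex IV, cytochrome c oxidase, had the lowest share of open genes among the complexes: 13 of 19 (68.4%), with a median of 3.29 over those open. Cox6a1 was the highest at 4.76 and 7.44 (6.10 ± 1.90), followed by Cox8a at 4.54 and 6.81 (5.67 ± 1.60) and Cox5b at 4.28 ± 0.977. The 6 genes without a peak in either library were Cox4i2, Cox6a2, Cox7b2, Cox8b, Cox8c and Ndufa4l2. All are forms known to be restricted to certain tissues or states: Cox6a2 and Cox8b to heart and skeletal muscle, Cox7b2 and Cox8c to testis, Cox4i2 to lung and low oxygen, and Ndufa4l2 to low oxygen. None of the 6 had any base within 500 bp of a start in the deposited lists of positions with a false discovery rate below 0.05, and none had a footprint there. Together with Cox6b2 and Cox7a1 there were 8 restricted isoforms, of which 2 were open (25%). This compares with 81 of the other 83 records (97.6%) and with 56.3% of all autosomal protein-coding genes. None of the 8 had a CpG-rich promoter, however. Of all genes 11717 of 20807 were open, and of the CpG-rich ones 8559 of 9817. Genes without a CpG-rich promoter were therefore open less often than 56.3%, which is not a like background for these 8. The isoforms were grouped by what is known of their tissues, and that choice was made with earlier results of these data known.

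Each widely used partner was open. Cox4i1, the common form of subunit 4, had 1.94 and 3.15 where Cox4i2 had no peak. Cox8a faced 2 closed isoforms, Cox8b and Cox8c. Ndufa4, once assigned to complex I and now to complex IV, had 2.32 and 2.90 where Ndufa4l2 had none. Starts of the coding genes Emc8 and Gm27021 lay 101 and 143 bp from starts of Cox4i1, and a start of Phf14 lay 312 bp from Ndufa4. The peaks of Cox4i1 and Ndufa4 therefore cannot be assigned to 1 gene. Between Cox6a1 and Cox6a2 the contrast was the widest, from 6.10 to no listed peak, and the lowest false discovery rate at Cox6a1 was 7.3e-49 in replicate 1 and 1.9e-71 in replicate 2. The partner of Cox7b2, Cox7b, is X-linked and stayed outside the rule. The 2 open restricted isoforms were the weakest members by mean apart from Ndufc2. Cox7a1, the muscle form, had 0.872 and 1.13 against 2.80 and 4.34 for Cox7a2, and was the lowest open member. Cox6b2, the testis form, had 1.17 and 1.81 against 1.76 and 2.66 for Cox6b1, and so was below its partner in each library.

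**Figure D3:**
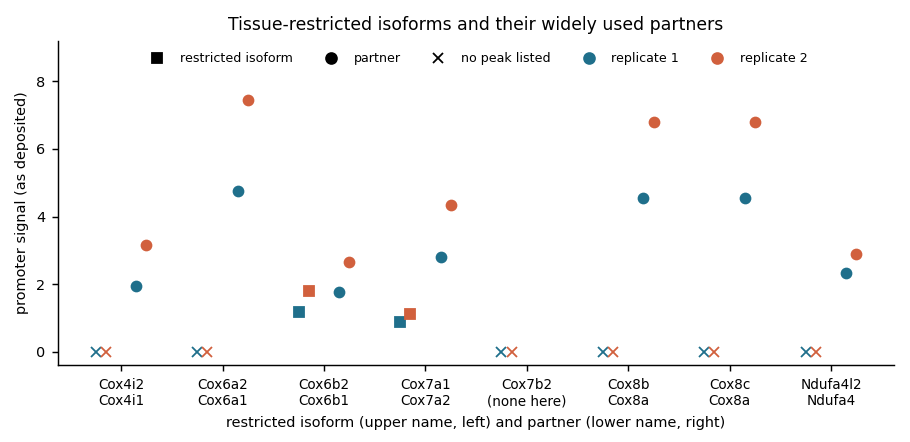
The promoter signal (y axis, units as deposited) is shown for each tissue-restricted isoform (squares, left of each tick) and its widely used partner (circles, right), in replicate 1 (blue) and replicate 2 (orange); crosses at 0 mark no listed peak. The partners lie between 1.76 and 7.44 and the isoforms at no peak, except Cox6b2 and Cox7a1, between 0.872 and 1.81.

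The restricted isoforms also differed in sequence. None of the 8 had a CpG-rich promoter, and their median ratio was 0.33, against 0.73 for the other members. Over all autosomal protein-coding genes 56.3% were open, and over the CpG-rich ones 87.2%, so genes without a CpG-rich promoter were open less often than 56.3%. Whether the missing peaks go with CpG content or with tissue restriction was not tested. The 160 bases upstream of the outermost start are shown for the open Cox6a1 and for Cox6a2 and Cox4i2, which had no peak, with capitals for bases inside footprints of both libraries. They are read 5′ to 3′ on the strand of the gene from GRCm38.p6, the assembly of mm10, at chr5:115348982-115349141 (minus strand), chr7:128206388-128206547 (minus) and chr2:152754013-152754172 (plus).
Cox6a1: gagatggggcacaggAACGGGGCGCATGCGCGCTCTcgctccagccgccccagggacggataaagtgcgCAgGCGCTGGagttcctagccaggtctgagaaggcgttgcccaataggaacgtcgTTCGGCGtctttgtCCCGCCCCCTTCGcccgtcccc
Cox6a2: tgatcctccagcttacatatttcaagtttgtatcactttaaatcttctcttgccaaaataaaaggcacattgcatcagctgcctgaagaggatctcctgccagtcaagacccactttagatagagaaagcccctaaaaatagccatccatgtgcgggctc
Cox4i2: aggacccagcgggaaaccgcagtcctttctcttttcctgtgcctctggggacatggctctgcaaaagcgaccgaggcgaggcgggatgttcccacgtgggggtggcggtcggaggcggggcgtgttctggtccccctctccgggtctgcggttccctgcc
The Cox6a1 stretch held 17 CG dinucleotides and 50 bases in footprints of both libraries. The Cox6a2 stretch held 1 CG and the Cox4i2 stretch 13, and neither held a footprint. The furthest upstream footprint of Cox6a1 and the next ones overlap matches to the recognition sequence of NRF1, described below with the other motifs.

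Footprints were found at nearly every open member. At least 1 footprint of both libraries, with an overlap of 1 bp or more, lay within 500 bp of a start in 81 of 83 open members (97.6%), against 94.4% of all open genes. The median number per member was 3, as over all open genes. Near the members' starts the libraries held 443 and 461 footprints, of which 69.8% in replicate 1 and 66.6% in replicate 2 were found in the other library. The shared ones had a median width of 13 and 14 bp. They clustered at the start: 77.3% in replicate 1 and 76.2% in replicate 2 were centred within 100 bp of it, with 223 upstream and 86 downstream in replicate 1 and 226 and 81 in replicate 2. The open members without a shared footprint were Ndufc2 and Cox7a1, both among the lowest signals.

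**Figure D4:**
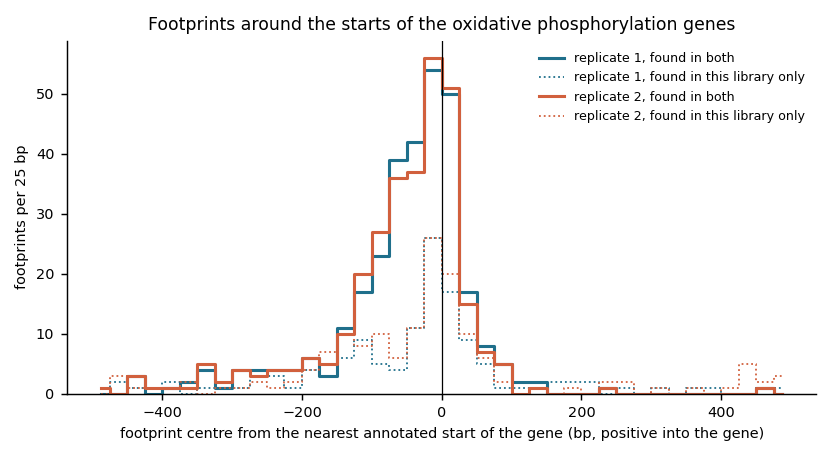
Footprints per 25 bp (y axis) are plotted by the distance of their centre from the nearest annotated start of the member (x axis, positive into the gene), in replicate 1 (blue) and replicate 2 (orange). Solid lines count footprints found in both libraries and dotted lines those of 1 library; the solid lines peak just upstream of the start and lean to the upstream side.

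Atp5g1, the member of highest signal, also had the most shared footprints, 9, from 11 and 13 in the libraries. With 8 each followed Ndufaf8, Ndufs1, Ndufaf3, Ndufs7, Atp5j and Ndufv2. The number rose only loosely with the signal, with a Spearman rho of 0.46 over the 83 members: Ndufv2 and Atp5j had 8 footprints with signals of 2.72 and 2.98. Their peaks were wide or several, and the sum of the Atp5j peaks was 6.11. The promoter CpG ratio followed the signal even less, with a rho of 0.15 over the open members, whose points share both libraries.

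Motifs of factors known to act on mitochondrial or housekeeping promoters were then searched on both strands. NRF1, nuclear respiratory factor 1, is named for its control of respiratory genes, and its motif was spelled GCGCANGCG. A match inside footprints of both libraries, each extended by 5 bp, was found in 19 of 83 open members (22.9%), against 11.6% of all open genes. Without the extension the count was 9 of 83 (10.8%, against 6.31%). In the window from 250 bp before to 50 bp after the outermost start, 17 of 91 members had a match (18.7%), against 8.17% of all genes. CpG-rich genes had more than all genes, at 13.4% in footprints and 15.6% in the window, and mitochondrial ribosomal protein genes, at 19.5% and 19.2%, were close to the members. The 29 NRF1 matches in members' footprints merged into 25 places, and 20 of the 29 lay upstream of the nearest start. They fell on 7 structural genes and 2 assembly factors of complex I (among them Ndufa8, Ndufa6, Ndufa11 and Ndufaf4), on Sdha and Sdhd, on Uqcrc1, on Cox6a1 and on 6 genes of ATP synthase, among them Atp5g2, Atp5c1, Atp5h and Atp5o. Sdha, Ndufa8, Cox6a1 and Atp5g2 had more than 1 such place. Ndufb4, whose 3 places were the most for a member, was chosen here after its values were seen. The members with an NRF1 footprint match had a median signal of 4.64 and the others 3.67. Footprints and signal rest on the same cuts, and their number and height had a rho of 0.46 over members. A choice by footprint can therefore favour members of higher signal, and whether the motif goes with the signal was not tested.

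YY1, a zinc-finger factor that binds near the start of many housekeeping genes, was searched as AANATGGCG. Its share in footprints was 9 of 83 open members (10.8%), against 2.25% of all open genes, 2.69% of CpG-rich ones, 5.41% of cytosolic and 3.90% of mitochondrial ribosomal protein genes. Without the extension 1 of 83 members had a match (1.20%, against 0.350%), since most of these matches reached past a footprint's edge. In the upstream-biased window the share was 4 of 91 (4.40%), against 2.90% of all genes, and was below the 5.27% of CpG-rich, 10.3% of cytosolic ribosomal and 14.1% of mitochondrial ribosomal protein genes. Within 500 bp on each side of the start, it was 23 of 91 (25.3%), against 6.23%. The members with a match in footprints included Ndufs1, Ndufa9 and Ndufc1 of complex I, the assembly factor Ndufaf8, Uqcrh and Uqcrb of complex III, and Atp5g1 and Atp5b of ATP synthase, with none in complexes II and IV. Most matches lay at or inside the gene: 7 of 10 were centred at or downstream of the nearest start, and 5 of 10 overlapped the annotated start codon, against 13.7% of 270 such matches over all open genes. The motif contains the letters ATG, so this position sits on coding sequence. Open members with a YY1 footprint match had a median signal of 6.22, and those without had 3.74. As for NRF1, the choice by footprint can favour higher signal, so these medians only describe the lists. An NRF1 or a YY1 match in footprints was found in 28 of 83 open members (33.7%), against 13.5% of all open genes. Both were rare together, in 0 of 83 members and 43 of all open genes (0.367%), so the members' 0 is near the background.

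Sites of NRF1 and YY1 are shown because their shares in footprints lay furthest above the background, with the match in capitals and read on the strand of the gene; CGCCATNTT is the reverse of the YY1 motif. They include a match from each complex, of a member with high signal, and 4 of the matches over a start codon, the latter chosen after their values were seen. The locations, on GRCm38.p6, are chr3:51408915-51408944 (Ndufc1, minus strand), chr6:126849097-126849126 (Ndufa9, minus), chr10:128083313-128083342 (Atp5b, plus), chr13:66905296-66905325 (Uqcrb, minus), chr1:63176655-63176684 (Ndufs1, minus), chr11:120098934-120098963 (Ndufaf8, plus), chr4:116075396-116075425 (Uqcrh, minus), chr11:96075914-96075943 (Atp5g1, minus), chr9:50603910-50603939 (Sdhd, minus) and chr5:115349057-115349086 (Cox6a1, minus). The first 4 overlap the start codon.
Ndufc1 (YY1): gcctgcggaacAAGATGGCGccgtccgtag
Ndufa9 (YY1): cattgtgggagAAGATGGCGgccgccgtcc
Atp5b (YY1): acccggattcCGCCATGTTgagtcttgtgg
Uqcrb (YY1): actctcaggtcAAAATGGCGggccgatctg
Ndufs1 (YY1): gttgccgtggcCGCCATATTgacttagcgg
Ndufaf8 (YY1): ggcagggcccAAGATGGCGgcgccctcgag
Uqcrh (YY1): gcctcgggcgcCGCCATCTTggggaggtgc
Atp5g1 (YY1): tgcaccttggtCGCCATTTTgtgttgaagg
Sdhd (NRF1): ttcgctggggtGCGCACGCGcggtggcagc
Cox6a1 (NRF1): acggataaagtGCGCAGGCGctggagttcc
In Ndufc1, Ndufa9 and Ndufaf8 the 9 letters of the match were identical, AAGATGGCG. The Uqcrh match was centred at -339 bp from the nearest Uqcrh start and that of Atp5g1 at -258 bp, while those over start codons were centred between 14 and 68 bp downstream.

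In footprints, the shares of the other motifs were near or below the background. ETS factors such as GABP, also called nuclear respiratory factor 2, were searched as CCGGAAGT and matched in footprints of 2 of 83 open members (2.41%, against 2.60%), Ndufs1 and Uqcrh, and in the window of 6 of 91 (6.59%, against 4.80%). The Sp/KLF motif GGGCGG was below the background in footprints, at 30 of 83 (36.1%, against 48.4%), and at 39 of 91 in the window (42.9%, against 43.7%), but above it within 500 bp on each side of the start, at 66 of 91 (72.5%, against 61.4%). The CREB motif TGACGTCA was found in footprints of 4 of 83 (4.82%, against 3.81%), Ndufa10, Ndufb2, Uqcrfs1 and Atp5d, and in the window of 4 of 91 (4.40%, against 2.43%). The motif of estrogen-related receptors, TCAAGGTCA, was in no member's footprint (0 of 83, against 0.00853%) but lay above the background outside footprints, on few genes: in 2 of 91 windows (2.20%, against 0.49%) and in 9 of 91 within 500 bp on each side of the start (9.89%, against 1.84%). NF-Y, CCAAT, was near the background in footprints, at 11 of 83 (13.3%, against 13.7%), and in windows, at 36 of 91 (39.6%, against 38.6%). The TATA motif TATAAA was in 1 of 83 (1.20%, against 1.02%) and in 12 of 91 windows (13.2%, against 12.7%). These window shares differ with CpG content. In the windows of CpG-rich members Sp/KLF stood at 47.2%, against 70.4% of all CpG-rich genes, and was thus below them. For ETS it was 6.94% against 8.55%, and for TATA 6.94% against 6.23%. Cytosolic and mitochondrial ribosomal protein genes had ETS window matches in 14.1% and 12.8%, more than the members. Matches of different motifs were counted without regard to overlap with each other, and no match says only that these letters are not in the window.

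**Figure D5:**
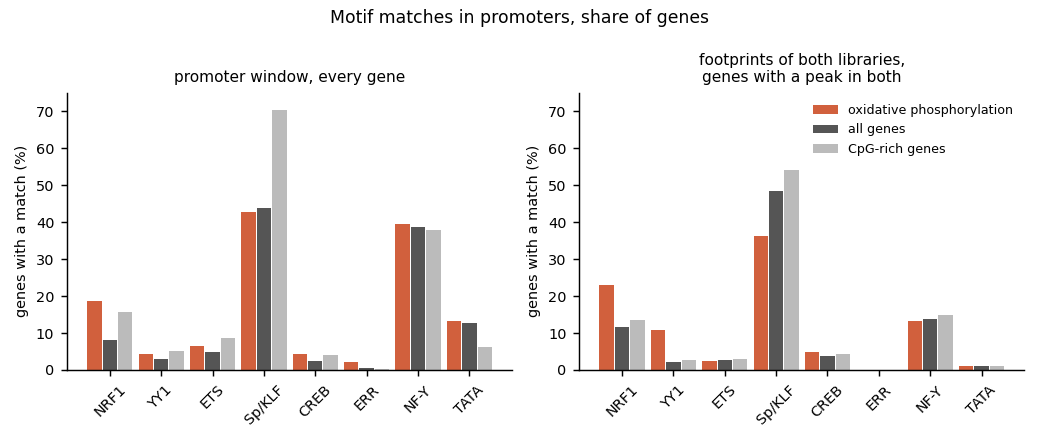
The bars give the share of genes with a motif match (y axis, percent) for the oxidative phosphorylation genes (orange), all autosomal protein-coding genes (dark grey) and those with a CpG-rich promoter (light grey). In footprints of both libraries (right), the orange bar is above both greys for NRF1 (22.9%) and YY1 (10.8%) and below both for Sp/KLF (36.1%); the left panel counts matches in the promoter window of every gene.

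Many members share their open promoter with a neighbour. A protein-coding gene on the opposite strand began within 1000 bp upstream of the outermost start in 22 of 91 members (24.2%), against 6.97% of all genes and 12.5% of CpG-rich genes. Mitochondrial ribosomal protein genes were like the members, at 18 of 78 (23.1%). When every annotated start was used, each promoter peak of 31 of 83 open members (37.3%) lay within 500 bp of a start of another coding gene in at least 1 library, against 17.9% of all open genes. In all 31 the neighbour was on the opposite strand, so their peaks cannot be assigned to 1 gene. Several neighbours make proteins of translation or of mitochondria. The closest were Eef1b2, a translation elongation factor, 3 bp from a start of Ndufs1, and Rps28, a ribosomal protein, 10 bp from Ndufa7, whose peak was 5.89 and 6.94. Mitochondrial ribosomal proteins neighboured Ndufb5 (Mrpl47, 20 bp) and Ndufs6 (Mrpl36, 29 bp), and the mitochondrial import protein Timm8b neighboured Sdhd (98 bp). Gabpa, the DNA-binding subunit of GABP, began 31 bp from a start of Atp5j, and the highest peaks of both genes had the same values, 2.71 and 3.24. These neighbours, other than those of members named by the rule, were chosen after the values were seen. Without peaks near another coding gene, 52 of 91 members and 47 of 78 mitochondrial ribosomal protein genes were open. The same count was 9624 of 20807 over all autosomal protein-coding genes. Among CpG-rich genes it was 6783 of 9817, and among CpG-rich members 42 of 72, a smaller share.

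Beyond the promoters, distal peaks were about as common around the members as around other genes. A distal peak was defined as a peak of both libraries that overlaps, lies more than 500 bp from any annotated start and lies within 50 kb of a start of the member. At least 1 was found for 73 of 91 members (80.2%), against 75.1% of all genes, and the median was 2 for both. The 201 distal peaks had a median mean signal of 1.14, against 1.00 for the 21274 within 50 kb of any autosomal protein-coding gene, and 57 of them were nearer to the member than to any other coding gene. The highest counts were 7, at Atp5h, Sdhc and both Atp5o records, and 6, at Cox6a1, Cox4i2 and Ndufa4l2.

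At 8 of the 65 open members with a distal peak (12.3%), the highest distal peak exceeded the promoter, against 26% of the 9942 such genes in all. The promoter mean of Atp5d, the delta subunit of ATP synthase, was 5.24, from peaks at different starts in the 2 libraries. Its highest distal peak exceeded this, at 6.68 and 10.9, centred 17580 bp downstream of a start, but lay nearest to Cirbp. The same held for Ndufc2 (3.74 against 1.42), nearest to Kctd14, for Cox6b1 (3.83 against 2.21), nearest to Zbtb32, and for Sdhc (4.19 against 3.70), nearest to Cfap126. Some members without a promoter peak had distal peaks nearest to them. The promoter of Ndufa4l2 had no peak, yet a peak centred at -1976 bp from its start had 2.93 and 3.84 in the libraries. Another at -3206 bp had 2.10 and 4.43, and Ndufa4l2 was the nearest coding gene to both. Lower upstream peaks nearest to the gene were found at Cox6a2, at -2004 bp with a mean of 1.06. Cox8b had them at -3024 and -8288 bp, with means of 0.951 and 0.807. Cox4i2 had 3 such nearest peaks, all beyond the end of the gene, with means from 1.05 to 1.46. Which gene a distal peak serves was not measured.

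Other genes of the pathway that the symbol rule does not take were open at a like rate. Of 33 such genes, mostly assembly factors, 32 were open, with a median of 3.73. Cyc1, the cytochrome c1 subunit of complex III, was among them, at 1.38 and 2.02. The highest were Cycs, cytochrome c, at 6.33 and 9.82, and Atpaf2, an ATP synthase assembly factor, at 6.06 and 10.04. Sdhaf1, an assembly factor of complex II, had no promoter peak in either library. Of 11 regulators of mitochondrial genes, 10 were open. Esrra, an estrogen-related receptor, was the highest at 7.20 and 13.4, followed by Tfb1m, a mitochondrial rRNA methyltransferase, at 5.74 and 6.71. Ppargc1a, the coactivator PGC-1alpha, had no promoter peak in either library. Yy1 had 4.19 and 7.07, and Nrf1 had 2.11 and 3.67; these were named because their motifs are reported above. The lists were chosen with earlier results of these data known and are given as counts.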

How the data were processed

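DNase-seq had been done in 2 libraries of 1 group, taken as replicates by the biological replicate number in the labels. Per the deposited file descriptions, the files of a library rest on its own mm10 alignments, without pooling. The names of the aligner and of the callers of peaks and footprints, and their settings, are not given in the sources used here. Deposited signal values, 1 per peak, are scaled by library and are whole multiples of a step (100% within 0.01 of a whole number), 145 steps per unit in replicate 1 and 132 in replicate 2. The depth in reads is unknown. If a step is 1 cut, the members' median signal of 482 and 602 steps carries a counting error of 4.55% and 4.08%, and such errors cover counting only. The deposited footprint lists hold a p-value of 0.01 throughout, which gives footprints no order. The FDR values of single positions, as deposited, lie below 0.05.

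The smaller of the 2 peak lists per library was used, and the larger as an alternative. Starts came from GENCODE M21 and bases from GRCm38.p6, and overlap meant at least 1 bp. The RefSeq promoter table of this assembly held 76 promoters of 71 members' symbols, all identical to those bases. Reads were not assigned to parental alleles. No test was made over genes, and standard deviations are over n = 2 libraries. The scoring was tested on simulated data, where 200 of 200 planted genes were scored as planted and 800 of 800 planted motifs were found, with 0 false genes. The genes had peaks in both libraries, in 1 library or outside the promoter window, and no start of another gene nearby. The motifs were set in stretches of A and T only. The test therefore does not cover promoters shared with a neighbour or chance matches in GC-rich sequence. Python 3.11.15, numpy 2.4.6, pandas 2.3.3, pysam 0.24.0, samtools 1.23.1 and matplotlib 3.10.9 were used.

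Members, isoforms, gene lists and motifs were chosen with earlier results of these data known. Genes were named by a rule: in each group the 3 highest and 2 lowest open members, members without a peak, isoforms and partners, the 5 members with the most shared footprints and with the most distal peaks (ties up to 8), the 3 widest ratios in each direction, up to 12 members with an NRF1, YY1 or estrogen-related receptor match, and the extremes of the other lists. A few genes named by it are not reported here but remain in the counts. Other names are given for their role in the complexes and were picked with their values in view. Alternatives were other windows, starts, peak lists, overlaps, ways to combine peaks, footprint extensions, motif windows and each library alone. Only peaks away from other genes was an alternative chosen after seeing the data.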

Additional observations from a re-analysis of the deposited data

How the results depend on the processing

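The open members numbered 80 to 84 under every other window, start, list and overlap tried. With peaks near another coding gene left out, 52 of 91 were open, against 9624 of all 20807 genes and 6783 of 9817 CpG-rich ones. Each library alone gave 83 to 84. The median signal was 3.24 to 4.56 with 1 library left out, and the median number of promoter footprints was 5 in each library alone, against 3 shared; this follows from dropping the need to be shared. Distal peaks had a median of 1 within 25 kb and 4 within 100 kb. Without extending footprints, members with a match in them fell to 9 for NRF1, 1 for YY1, 1 for ETS, 18 for Sp/KLF and 5 for NF-Y, and the share of all genes fell to 6.31% for NRF1 and 0.350% for YY1; the YY1 result therefore depends on the 5 bp extension. Within 500 bp on each side of the start, matches were found in 26 of 91 members for NRF1 (28.6%, against 12.9% of all genes), 23 for YY1 (25.3%, against 6.23%), 11 for ETS (12.1%, against 7.26%), 66 for Sp/KLF (72.5%, against 61.4%), 9 for estrogen-related receptors (9.89%, against 1.84%) and 24 for TATA (26.4%, against 32.2%). Within 150 bp of the replicate 1 peak centre, among genes with such a peak, they were found in 20 of 84 for YY1 (23.8%, against 6.63%), 46 for Sp/KLF (54.8%, against 68.3%), 2 for estrogen-related receptors (2.38%, against 0.218%) and 4 for TATA (4.76%, against 4.18%), and from 150 bp before the start in 7 of 91 for TATA (7.69%, against 8.53%). The sum of peaks moved 9 of 45 named members by more than their SD, most of all Atp5j (to 6.11), Ndufs7 (3.53 to 6.60), Ndufaf3 (4.29 to 7.99), Uqcrh (4.62 to 7.96), Ndufv2 (2.72 to 4.50) and Atp5l (2.26 to 3.57). No paired analysis was possible because there was 1 group. What limits the rest is that 2 libraries give a spread but no test, that the signal scale is not given, and that a missing peak can be a peak below the caller's threshold.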
